A study of Mus musculus with 16 samples.

Results

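MTO220 and MTO54 are mouse tumour organoid lines, epithelial tumour cells grown as 3-dimensional cultures, and both are labelled AKP, triple mutant and wild type for Tgfbr2. The letters are not spelled out in the labels; in this field they are usually read to include lesions of Apc and Trp53. The comparison used the 8 libraries titled MTO220 (4) or MTO54 (4) of the 16 in the series, with the culture medium as a term, and the 4 libraries of each medium were also read alone. Each line was grown in full medium, which contained 50 ng/ml of EGF, 100 ng/ml of noggin, which blocks BMP ligands, and 1 µM of the TGF-beta receptor kinase inhibitor galunisertib, and was collected at day 4. Each line was also grown without galunisertib and with TGF-beta1 (labelled 5 ng/ul) and collected at day 7, here called TGF-beta medium, so medium and culture time cannot be told apart. Each of the 4 groups held 2 libraries, from consecutive passages sequenced in separate pools: passages 14 and 15 of MTO54 and passages 10 and 11 of MTO220. Each line stands for itself alone, so line, source tumour, host animal and passage cannot be told apart. The p-values measure the spread between libraries of a line, not between tumours. In the fit over both media that spread also takes in any change of the line difference between the media, for which this fit has no term. The strain, sex and age of the source animals are not given in the sources used here. The remaining 8 libraries come from 2 lines labelled APT, MTO100 and MTO101, whose full-medium values are given where they place a difference.

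The intestinal epithelium renews itself from LGR5-positive crypt stem cells that depend on WNT signals. Their progeny turn off Notch and become secretory cells (goblet, Paneth, enteroendocrine, tuft) under ATOH1, or keep Notch on and become absorptive cells, whose brush border genes answer to HNF4 and CDX proteins. p53, made from Trp53, is a stress-activated transcription factor that is often lost in colorectal tumours, and HOX genes keep a record of position along the gut.

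Levels below are normalised reads, that is, reads per gene divided by the library's size factor. Differences are MTO220 minus MTO54 on the log2(normalised reads + 1) scale with their standard error, and adjusted p-values are limma's with Benjamini-Hochberg adjustment. Where values of a line are listed, the order is full medium pool 1 and pool 2, then TGF-beta medium pool 1 and pool 2. Libraries held 17056053 to 22251986 reads and 16791 to 18684 genes with a read. Libraries of the same line and medium correlated across genes at 0.973 to 0.993 and the lines within a medium at 0.906 to 0.924. Among markers of other cell types Cd3e, Cd8a, Lum and Emcn had no read in any of the 8 libraries, and Ptprc reached at most 7.64. The 10 fibroblast markers summed to 15.3 to 26.8 reads in full medium and 143 to 206 in TGF-beta medium, where 3 of 4 tested were called between the lines, 2 higher and 1 lower in MTO220. Of the endothelial list Cdh5, Pecam1, Tek and Esam are given below, and Vwf had 12.4 to 156 over both lines. Of the immune list S100a8 had 3.28 and 1.98 in MTO54 and 18.4 and 10.7 in MTO220 in full medium, Cd68 had 21.8 to 89.8 over both lines and Ly6g, in the Ly6 region, 3132 to 10410 in MTO54 and 371 to 6048 in MTO220. Total RNA yield was 12690 to 70320 ng for MTO54 and 2634 to 60330 ng for MTO220, whose TGF-beta cultures gave 8400 and 2634 ng; its part in the differences in that medium was not tested. In bulk RNA, fewer cells of a type and less RNA per cell cannot be told apart.

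With both media in one fit, 2803 of 13725 tested genes (20.4%) differed between the lines, 1529 higher in MTO220 (11.1%) and 1274 lower (9.28%). The median absolute difference of the called genes was 1.17, and 1596 of them exceeded 2-fold. In 2712 of the 2803 all 4 matched pairs of medium and pool had the same direction, and in 1408 no library of one line reached the range of the other. Of all tested genes 1709 (12.5%) were without such overlap. The 2803 were called on the same 8 libraries, so these counts describe the called genes and are no further test. In full medium alone 1944 of 13696 genes (14.2%) were called, 7.36% higher and 6.83% lower in MTO220. In TGF-beta medium alone 6052 of 14287 (42.4%) were called, 24.1% higher and 18.3% lower. Of 1257 genes called in each of the single-medium fits, which share no library, 121 had opposite signs. The counts rest on small groups: leaving out 1 library moved the 2803 to between 1693 and 3373, with 1700 and 1693 without the pool 1 and pool 2 library of MTO220 in TGF-beta medium. In full medium the 1944 became 916 and 1074 without the pool 1 and pool 2 library of MTO220, and in TGF-beta medium the 6052 became 3141 and 3166 without those of MTO220.

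**Figure D1:**
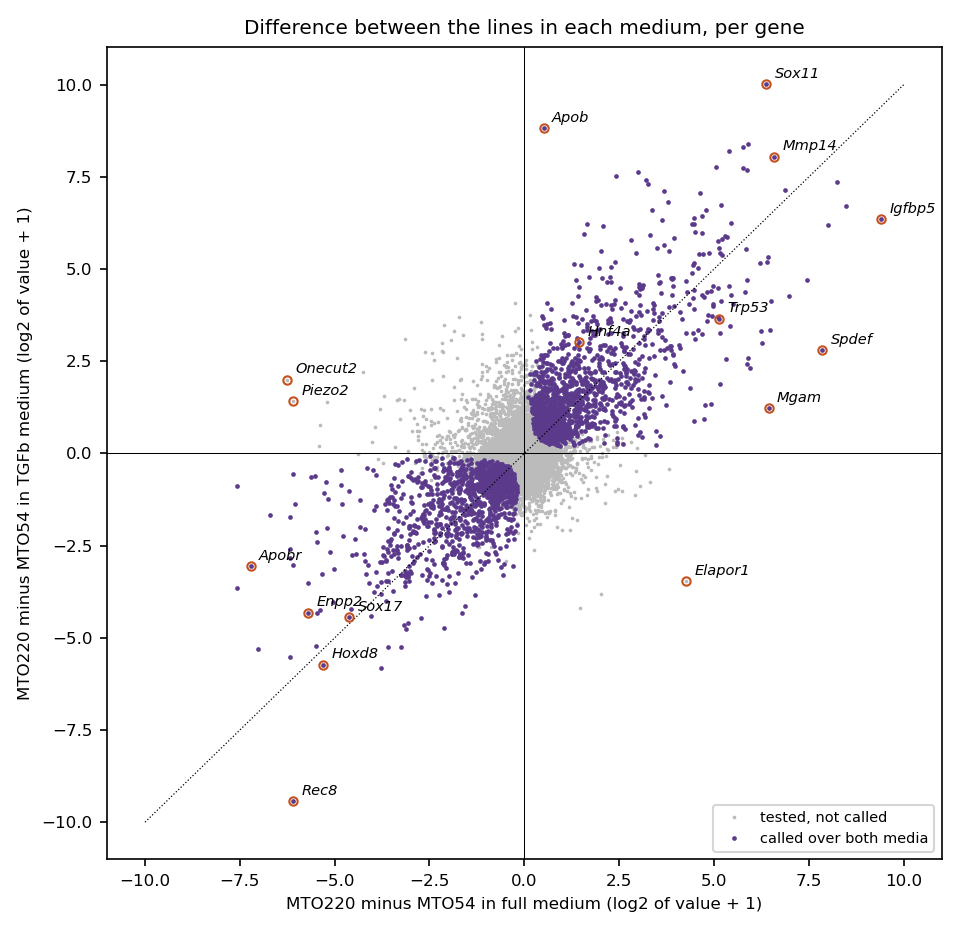
Difference between the lines (log2, MTO220 minus MTO54) in full medium on the x axis and in TGF-beta medium on the y axis, 1 point per gene tested, purple where called over both media and ringed where named; the dotted line marks equal differences. Sox11 and Mmp14 lie high and Rec8 low in both media, while Onecut2, Piezo2 and Elapor1 lie in the quadrants where the order of the lines turned.

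Trp53 separated the lines without overlap. MTO54 had 122, 97.3, 183 and 137 normalised reads and MTO220 had 4207, 3490, 2119 and 1916. Every MTO220 library was above every MTO54 library, a difference of 4.39 ± 0.28 (adjusted p = 6.4e-06). In full medium the APT lines had 91.2 and 109 (MTO100) and 150 and 120 (MTO101), near MTO54, so MTO220 stood alone among the 4 lines. The difference was larger in full medium (5.12 ± 0.28) than in TGF-beta medium (3.66 ± 0.18), and the interaction of line and medium was called (-1.46 ± 0.31, adjusted p = 0.017). Which Trp53 allele each line carries is not given in the sources used here, and poly(A) reads per gene do not tell wild-type from mutant or truncated RNA.

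Few of the surrounding genes differed. Of 21 tested genes that surround Trp53 on chromosome 11, from Trappc1 to Chrnb1 (starts 69323986 and 69784036, GRCm38.p6), 1 was called, Chrnb1, a nicotinic receptor subunit, at 0.51 ± 0.12 (adjusted p = 0.0153, lost in 2 of 8 fits that left out 1 library each, with adjusted p up to 0.0769). Wrap53, whose first exons overlap Trp53 on the opposite strand and whose reads the unstranded libraries cannot separate, differed by 0.37 (adjusted p = 0.23).

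Genes that p53 induces did not follow the Trp53 RNA as a group. Of 38 listed targets 35 were tested, 4 were higher in MTO220 and 2 lower (17.1%, beside 20.4% of all genes), with a median difference of 0.11 beside 0.01 over all genes. Plk2, a polo-like kinase, was higher by 1.34 ± 0.19 (adjusted p = 0.00072), and Plk3 by 0.71 ± 0.23 (adjusted p = 0.049, lost in 7 of 8 fits without 1 library, with adjusted p up to 0.137). Pmaip1, which encodes the cell death protein NOXA, was at 107, 413, 103 and 131 in MTO54 and at 318, 268, 1738 and 1410 in MTO220. Its excess of 2.10 ± 0.61 lay in TGF-beta medium, and its call (adjusted p = 0.034) was lost in 7 of 8 fits without 1 library, with adjusted p up to 0.196, with the sequencing pool as a block (0.0643), and in edgeR and DESeq2. Phlda3, an AKT inhibitor, was lower, at 1827, 2351, 977 and 1266 against 176, 204, 705 and 684, by 2.06 log2 units (SE 0.46, adjusted p = 0.0094; 0.0656 and 0.0558 without the MTO220 full-medium library of pool 1 or pool 2). Cdkn1a, encoding the cell cycle inhibitor p21, was at 649 and 3358 in the MTO54 full-medium pools and at 467 and 491 in those of MTO220, so the spread between the MTO54 libraries exceeded the distance to MTO220. Mdm2, the p53 ubiquitin ligase, differed by 0.11 (adjusted p = 0.68). Of 17 tested members of the p53 family list, which holds p63, p73 and regulators, Trp53 was higher and Cdkn1b lower, the latter lost in 5 of 8 fits without 1 library (adjusted p up to 0.0901).

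Tgfbr2, the TGF-beta type II receptor, differed by 0.28 (adjusted p = 0.25) and Apc by 0.50 (adjusted p = 0.12). Smad4, the shared mediator of TGF-beta and BMP signals, was higher in MTO220 by 0.47 ± 0.13 (adjusted p = 0.028), a call lost in 5 of 8 fits without 1 library, with adjusted p up to 0.101, and with the pool as a block (0.0507).

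**Figure D2:**
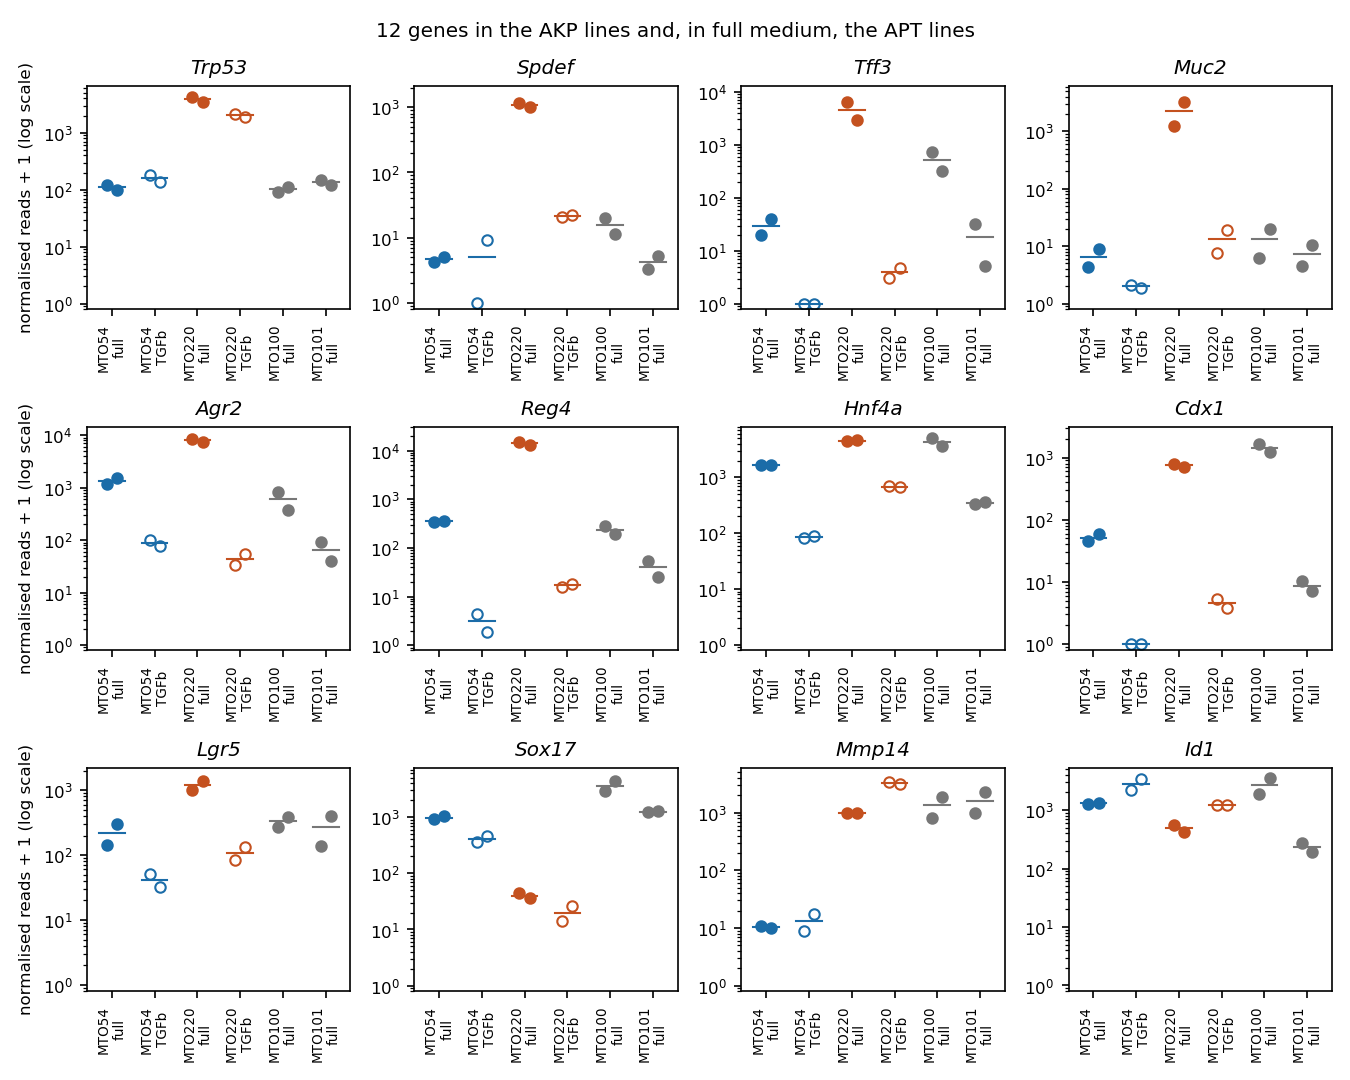
Normalised reads + 1 (log scale) of 12 genes in the AKP lines in full (filled) and TGF-beta medium (open) and in the APT lines in full medium (grey), 1 point per library with a bar at the group mean. The 4 MTO220 libraries of Trp53 sit between 1916 and 4207 reads, above all 4 MTO54 libraries, which sit between 97.3 and 183.

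Genes with the largest differences were close to silent in 1 line. Igfbp5, which binds insulin-like growth factors, had 0, 0.993, 0 and 0 reads in MTO54 and 864, 1055, 66.7 and 96.9 in MTO220 (adjusted p = 1.3e-05). Igfbp2 of the same family had 1.09, 0, 0 and 0 against 407, 643, 99.0 and 109. Sox11, a neural and progenitor transcription factor, had 0, 0, 0 and 3.61 against 46.0, 146, 2122 and 2352. Tceal8 was at 0 in all 4 MTO54 libraries and at 52.9, 63.9, 378 and 296 in MTO220. Igfbp5, Igfbp2, Sox11 and Tceal8 pass the filter through MTO220 alone and could only come out higher, so their calls describe them and are no test of direction. The APT lines had 25.4 to 278 reads of Igfbp5 and 67.8 to 112 of Sox11 in full medium. MTO54 lay below the APT lines for both genes in that medium. MTO220 lay above the APT lines for Igfbp5 and on both sides of their range for Sox11.

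Several further genes high in MTO220 act at the cell surface or in the matrix. Mmp14, a membrane-bound matrix metalloprotease, was at 9.83, 8.93, 7.95 and 16.3 in MTO54 and at 1002, 979, 3417 and 3194 in MTO220, a difference of 7.32 ± 0.32 (adjusted p = 9.5e-07). Nrp1, a semaphorin and VEGF co-receptor, differed by 5.60 ± 0.34 and Inhbb, the activin B subunit, by 5.24 ± 0.38. Prdm16, a zinc finger regulator known from brown fat and stem cells, was at 12.01, 14.9, 6.82 and 2.71 against 567, 685, 383 and 436, and reached at most 7.42 in the APT lines, so here MTO220 was the line set apart. Rhox5, an X-linked homeobox gene of the germ line, was likewise highest in MTO220 among the 4 lines in full medium, with 1056 and 846 reads beside 18.6 and 24.8 in MTO54 and at most 12.7 in the APT lines. Armh4 (7.04), Pxdn (6.75), Cadps (5.33), Fstl1 (5.31), Pklr (5.10) and Krt14 (4.97) completed the genes of highest difference. Nrp1 and Pxdn pass the filter through MTO220 alone and could only come out higher.

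Genes lower in MTO220 began with Rec8, the meiotic cohesin subunit, at 97.2, 191, 863 and 1149 in MTO54 and at 1.15, 0.888, 1.08 and 0 in MTO220 (adjusted p = 2.3e-05). Rec8 passes the filter through MTO54 alone and could only come out lower. All 4 APT full-medium libraries had 550 to 878 reads of it. Enpp2, encoding the lysophosphatidic acid enzyme autotaxin, was at 8252, 9915, 12977 and 11087 against 159, 190, 639 and 565, lower by 5.00 log2 units (SE 0.25). Sox17, an endoderm transcription factor, was at 924, 1029, 365 and 463 against 43.7, 34.6, 12.9 and 24.7. Slc38a4, an amino acid transporter, had 9528 to 13166 reads in MTO54 and 228 to 1105 in MTO220. Stra6, the receptor for retinol-binding protein, was lower (-3.95). It reached 64275 reads in MTO54 and was down to 297 in an MTO220 full-medium library. These are extremes of each line and span more than the fitted difference. Acsl6 (-5.62), Apobr (-5.13), Sh3tc2 (-4.80), Dapl1 (-4.42), Palmd (-4.39), Prss12 (-4.19), A2ml1 (-3.83) and Tmprss13 (-3.83) were lower too.

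Cdh5, the cadherin of endothelial junctions, was at 607, 1247, 40.9 and 37.0 in MTO54 and at 4.60, 2.66, 21.5 and 20.0 in MTO220, lower by 4.23 log2 units (SE 1.08, adjusted p = 0.019). This call was lost in 5 of 8 fits without 1 library, with adjusted p up to 0.127, and the difference in full medium was -7.59 against -0.88 in TGF-beta medium. Other endothelial genes went the opposite way in full medium: Pecam1 (3.28 and 4.96 against 19.5 and 24.9), Tek (2.18 and 2.98 against 31.0 and 39.1) and Esam (2.18 and 13.9 against 69.0 and 53.3) were higher in MTO220. Kdr and Emcn had at most 6.46 and 0 reads in these libraries.

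Secretory cells marked the second broad contrast, and in full medium it ran through regulators and products alike. Atoh1, the factor that starts the secretory fate, was at 14.2 and 3.97 in MTO54 and at 274 and 271 in MTO220 in full medium (4.97 ± 0.51, adjusted p = 4.6e-06 in that medium), with at most 1.08 reads in TGF-beta medium in either line. Spdef, a goblet and Paneth maturation factor, was at 3.28, 3.97, 0 and 8.13 in MTO54 and at 1145, 998, 19.4 and 20.9 in MTO220, a difference of 5.33 ± 0.97 (adjusted p = 0.0032). Gfi1, which acts downstream of ATOH1, had 2.18, 0.993, 0 and 5.42 against 77.0, 63.1, 25.8 and 33.2. Neurog3, which specifies enteroendocrine cells, had no read in MTO54 and 239 and 225 in MTO220 in full medium. The Notch ligand Dll1, expressed by secretory precursors, was higher by 3.05 ± 0.64 and the receptor Notch1 by 1.59 ± 0.24. Of 16 listed fate genes 12 were tested and 5 were higher in MTO220, none lower (beside 11.1% of all genes higher). Gfi1 and Spdef pass the filter through MTO220 alone and could only come out higher. The call of Sox4 was lost in 5 of 8 fits without 1 library, with adjusted p up to 0.13. The Notch target Hes1 and the progenitor factor Sox9 differed by 0.34 (adjusted p = 0.14) and -0.25 (adjusted p = 0.30).

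Goblet cell products were high in MTO220 in full medium. Of 20 listed goblet genes 19 were tested in full medium and 16 were higher in MTO220 (beside 7.36% of all genes higher in that medium), none lower. Muc2, the gel-forming mucin, was at 3.28 and 7.94 in MTO54 and at 1248 and 3268 in MTO220. Tff3, a trefoil peptide, was at 18.6 and 39.7 against 6360 and 2879. Spink4 had 1.09 and 3.97 against 1684 and 1112, and Fcgbp, a mucus protein, 236 and 414 against 3161 and 3784. Agr2, a disulfide isomerase needed for mucin folding, was at 1160 and 1513 against 8425 and 7536, whereas in TGF-beta medium MTO220 was the lower line (100.0 and 74.99 against 33.4 and 53.2, adjusted p = 0.020, and up to 0.189 without 1 library). Over both media 13 of the 20 were tested and 9 were called, all higher (beside 11.1% of all genes higher). Muc13 (4.25 ± 0.65), Galnt12 (2.54 ± 0.20), Gcnt3 (2.08 ± 0.37) and Sytl2 (1.68 ± 0.28) were among those of smallest p. Since several members pass the filter through MTO220 alone, these counts describe the list and do not test it. Of the 16 and 9 calls, 14 and 7 were made in every fit without 1 library that tested them. In full medium Muc2, Spdef, Spink4, Capn9, Guca2a and Tpsg1 were tested in only 2 of 4 fits, those with both MTO220 libraries. Over both media Spdef and Tff3 were tested in 4 of 8 fits. Nearly all of these genes were low in TGF-beta medium in both lines: Muc2 had at most 18.1 reads there and Tff3 at most 3.80.

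Paneth and deep crypt secretory genes were likewise higher in MTO220 in full medium but, unlike goblet genes, were not lower in TGF-beta medium in both lines. Their sum was 1463, 2263, 3924 and 4881 reads in MTO54 and 21750, 18867, 8521 and 9024 in MTO220. In TGF-beta medium 6 of 7 tested were higher in MTO220, none lower (beside 24.1% of all genes higher). Reg4 and Pla2g2a pass the filter there through MTO220 alone. In full medium 13 of 19 were tested and 12 were higher in MTO220, none lower (beside 7.36% of all genes higher in that medium). Of the 12, 11 were called in every fit without 1 library that tested them. Lyz1, Lyz2, Defa20, Defa22, Defa24, Ang4 and Guca2b were tested in only 2 of these 4 fits, those that kept both MTO220 libraries. Here too many members pass the filter through MTO220 alone and could only come out higher. Lyz1, the Paneth cell lysozyme, was at 3.28 and 0.993 in MTO54 and at 1484 and 1410 in MTO220. Reg4, a lectin of deep crypt secretory cells, was at 348 and 356 against 15022 and 13330. In TGF-beta medium Reg4 was at 3.41 and 0.904 against 15.1 and 17.1, and the difference over both media was 3.94 ± 0.50 (adjusted p = 0.00039). Kit, a receptor that marks deep crypt secretory cells in colon, was higher in all 4 pairs, at 16.4, 7.94, 63.6 and 33.4 against 186, 196, 264 and 245 (3.19 ± 0.37). Itln1 (2.53 ± 0.38) and Pla2g2a (2.42 ± 0.39), an intestinal lectin and an antimicrobial phospholipase, were higher as well. The alpha-defensins Defa20, Defa22 and Defa24 were called in full medium at 11.6 to 56.3 reads in MTO220 and at most 0.993 in MTO54, and as near-identical copies are uncertain one by one.

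Enteroendocrine genes were higher in MTO220 in full medium in 9 of 12 tested (beside 7.36% of all genes), and 1, Cpe, was lower. Members near 0 in MTO54 pass the filter through MTO220 alone and could only come out higher. Chgb, a granule protein of endocrine cells, was at 1.09 and 0 in MTO54 and at 312 and 557 in MTO220, and Insm1, a factor of endocrine differentiation, at 0 and 1.99 against 284 and 270. Hormone genes stayed low in full medium in both lines, with at most 1.15 reads of Pyy and none of Gcg, Cck or Gip. Pyy, the peptide YY gene of distal L cells, was at 2459 and 1569 in MTO220 in TGF-beta medium and at 1.14 and 0.904 in MTO54, a difference of 9.93 ± 0.28 in that medium (adjusted p = 4.3e-08). Cpe, carboxypeptidase E, was at 2025, 2123, 13767 and 15692 in MTO54 and at 138, 97.7, 11634 and 10810 in MTO220, and its difference depended on the medium (interaction 3.76 ± 0.28). Over both media Cpe differed by -2.27 ± 0.60 (adjusted p = 0.023), a call lost in 5 of 8 fits without 1 library, with adjusted p up to 0.14, and with the pool as a block (0.0514).

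Tuft cell genes gave a mixed picture. Dclk1, a kinase that marks tuft cells, was higher in MTO220 at 4.37, 0.993, 54.5 and 60.5 against 17.2, 21.3, 446 and 403 (2.74 ± 0.34). Alox5ap, of leukotriene synthesis, was lower at 198, 205, 51.1 and 79.5 against 2.299, 5.33, 9.69 and 13.3 (-3.93 ± 0.57). The master regulator Pou2f3 had at most 12.5 reads, and Il25 and Chat had none in these 8 libraries.

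Endoplasmic reticulum genes, on which secretion depends, mostly did not separate the lines. Of 25 tested 6 were higher and none lower (24.0%, beside 20.4%), with a median of 0.11, and 1 of the 6 was called in every fit without 1 library. Hyou1, a chaperone, was higher by 0.71 ± 0.14. Creb3l1, a transcription factor of secretory cells, was at 499, 782, 105 and 81.3 against 5649, 5186, 120 and 134, thus higher in full medium. The main chaperone Hspa5 and the regulator Xbp1 differed by 0.24 (adjusted p = 0.31) and 0.59 (adjusted p = 0.076). The calls of Atf6, Creb3l1 and Creb3l2 were lost in 3, 3 and 5 of 8 fits without 1 library, with adjusted p up to 0.0737, 0.0918 and 0.118.

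Factors of intestinal and endodermal identity were partly higher in MTO220. Hnf4a, a nuclear receptor of gut and liver, was at 1677, 1649, 79.5 and 87.6 against 4429, 4692, 689 and 677 (2.24 ± 0.27), low in TGF-beta medium in both lines and above MTO54 in each medium. Gata6 (2.63 ± 0.21), Cdx1 (3.02 ± 0.40), Hnf4g (2.74 ± 0.44) and Foxa3 (0.92 ± 0.17) were also higher, and Foxa2 was lower (-1.11 ± 0.21). Sox2, which is in the gastric list too, was higher (1.92 ± 0.31). In all, 22 of 27 listed factors were tested, 7 were higher and 1 lower (36.4%, beside 20.4% of all genes). Cdx2, the main intestinal homeobox factor, did not differ in 1 direction: it was at 2926 and 3366 against 4568 and 4444 in full medium and at 1983 and 1869 against 814 and 806 in TGF-beta medium, with an interaction of -1.77 ± 0.24 (adjusted p = 0.0019).

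Absorptive and brush border genes were higher in 7 of 12 tested of 25 listed, with none lower (beside 11.1% of all genes higher). In TGF-beta medium alone 7 were higher and 1 lower of 11 (beside 24.1% and 18.3% of all genes). Over both media 5 of the 7 were called in every fit without 1 library that tested them, Anpep in only 4 of 8. The calls of Apob and Krt20 were lost in 6 and 4 of 8 fits, with adjusted p up to 0.189 and 0.0601. Myo1a, the brush border myosin, was at 120, 87.3, 1.14 and 6.32 in MTO54 and at 1855, 1631, 24.8 and 35.1 in MTO220 (3.51 ± 0.40). Cdhr2, a cadherin that links microvilli, was higher by 2.47 ± 0.32, Anpep, an aminopeptidase, by 3.97 ± 0.40 and Lgals4, a lectin, by 1.37 ± 0.17. Villin (Vil1) differed by 0.09 (adjusted p = 0.69). Genes of mature enterocytes were near 0 in both lines, with no read of Fabp1 or Apoa4 and at most 1.08 of Sis.

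HOX genes placed the lines differently along the 3 clusters expressed here. Of 36 listed 21 were tested, 4 were higher in MTO220 and 5 lower (42.9%, beside 20.4% of all genes), with a median of 0.15. The Hoxc genes had at most 7.54 reads. Hoxd8 was at 118, 119, 391 and 351 in MTO54 and at 2.299, 1.78, 7.54 and 4.75 in MTO220 (-5.51 ± 0.28), and Hoxd4 differed by -3.24 ± 0.78. Hoxa13, of the most distal group, was at 176, 146, 355 and 241 against 24.1, 24.0, 30.1 and 27.6 (-2.99 ± 0.24). Hoxa7 (1.47 ± 0.21), Hoxb2 (1.72 ± 0.19), Hoxb4 (0.80 ± 0.25) and Hoxb8 (0.95 ± 0.14) were higher in MTO220, and Hoxa11 (-0.79 ± 0.18) and Hoxb9 (-0.67 ± 0.20) lower. The calls of Hoxb4 and Hoxb9 were lost in 6 and 5 of 8 fits without 1 library (adjusted p up to 0.141 and 0.1), and that of Hoxd4 in 2 of the 4 that tested it (up to 0.0646). In the APT lines Hoxd8 reached at most 4.74, as in MTO220, and Hoxb2 at most 12.04, below both AKP lines. Hoxb13, a hindgut gene, had 222 to 466 reads in the APT lines and at most 1.15 in the 8 AKP libraries.

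**Figure D3:**
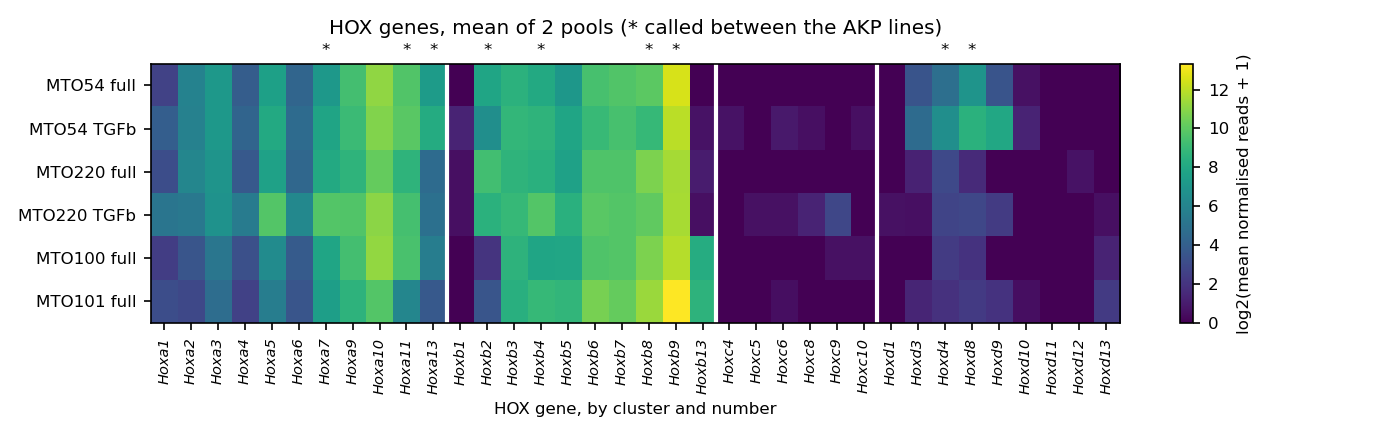
Colour map of the level (log2 of mean normalised reads + 1, 2 libraries per group) of the HOX genes, in columns by cluster and number, in the 4 AKP groups and the APT lines in full medium; asterisks mark the 9 genes called between the AKP lines. Hoxd8 and Hoxa13 are brighter in both MTO54 groups than in MTO220, and Hoxb13 is lit in the APT lines alone.

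Markers of gut region were few and mixed. Olfm4, a stem cell gene of the small intestine in mouse, was at 1.09, 0.993, 2.27 and 0 in MTO54 and at 43.7, 45.3, 87.2 and 47.5 in MTO220. Gata4, a factor of the proximal small intestine, had at most 1.81 reads in both lines. Car2, a carbonic anhydrase, was lower in MTO220 by 1.73 log2 units (SE 0.34). Of 16 colon genes 5 were tested over both media with 2 lower (Car2 and Ly6g, the latter lost in 3 of 8 fits without 1 library, with adjusted p up to 0.0837). In full medium 9 were tested and 5 were higher in MTO220 (Car1, Aqp4, Muc3, Mettl7b, Retnlb), none lower (beside 7.36% of all genes higher). All of these but Car1 pass the filter through MTO220 alone and could only come out higher. Car1 did not keep its call in every fit without 1 library. The count therefore describes the list and does not test it. Of 18 small intestinal genes 3 were tested over both media with 1 higher, Olfm4 (beside 11.1% of all genes higher). In full medium 5 were tested with 3 higher (Defa22, Defa24, Olfm4) and 1 lower, Onecut2 (beside 7.36% and 6.83% of all genes). The higher ones likewise pass the filter through MTO220 alone and could only come out higher. Among gastric genes Aqp5, a water channel, was lower, at 5290, 5805, 1055 and 1696 against 940.3, 929.9, 147 and 158 (-2.85 ± 0.19). In the gastric list of 18, 9 were tested, 2 higher (Sox2 and Muc1) and 1 lower (33.3%, beside 20.4% of all genes). The call of Muc1 was lost in 4 of 8 fits without 1 library, with adjusted p up to 0.0803.

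Stem cell genes were higher in MTO220 in 9 of 23 tested and lower in 2 (47.8% called, beside 20.4% of all genes). Lgr5, the crypt stem cell receptor for R-spondin, was at 143, 299.7, 50.0 and 31.6 in MTO54 and at 1002, 1399, 82.9 and 133 in MTO220, a difference of 1.94 ± 0.33 (adjusted p = 0.0023). Lrig1, a brake on EGF receptors, was at 1461, 2198, 185 and 155 against 5227, 6416, 523 and 560 (1.68 ± 0.17). Ephb2, which sorts crypt cells, was higher by 1.48 ± 0.21 and Smoc2 by 1.51 ± 0.26. Tnfrsf19, encoding TROY, was lower at 2818, 4070, 2942 and 2835 against 1262, 1739, 1334 and 1497 (-1.11 ± 0.16). The 12 other tested members were not called over both media.

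WNT feedback genes were lower in MTO220 more often than higher. Of 21 tested WNT targets 4 were higher (Lgr5, Sp5, Sox4, Nkd2) and 8 lower (beside 11.1% and 9.28% of all genes), with a median of -0.40. In TGF-beta medium alone 6 were higher and 8 lower of 20 (beside 24.1% and 18.3% of all genes). Nkd1, an inhibitor induced by WNT, was at 11374, 15209, 19198 and 21145 in MTO54 and at 2567, 3595, 11492 and 12570 in MTO220 (-1.43 ± 0.27). Notum, which removes the lipid from WNT, was at 2207, 2643, 5542 and 7229 against 429, 676, 3278 and 4085 (-1.48 ± 0.28). Wif1 (-1.62 ± 0.29), Tcf7 (-1.05 ± 0.17), Axin2 (-0.58 ± 0.18), Apcdd1 (-0.998 ± 0.30) and Dkk4 (-1.95 ± 0.59) were lower too. Of the 12 calls 7 were made in every fit without 1 library; those of Axin2, Apcdd1, Dkk4, Sox4 and Nkd2 were not, with adjusted p up to 0.149, 0.138, 0.133, 0.13 and 0.0766. Lef1 was lower in full medium by 2.41 log2 units (SE 0.41) and was not called in TGF-beta medium (0.15, adjusted p = 0.52), with a called interaction of 2.56 ± 0.54.

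The Id genes and 3 other genes of the BMP list were lower in MTO220 over both media. The inhibitors of differentiation Id1 (-1.28 ± 0.17), Id2 (-1.36 ± 0.24), Id3 (-1.44 ± 0.21) and Id4 (-1.46 ± 0.33), all induced by BMP, were each lower in every matched pair without overlap of the lines. Id3 was at 2237, 2244, 1614 and 2429 in MTO54 and at 582, 616, 1069 and 951 in MTO220. The ligand Bmp4 was at 764, 998, 2314 and 2789 against 58.6, 100.4, 1206 and 1394 (-2.23 ± 0.44), the homeobox target Msx1 lower by 3.28 (SE 0.46) and the inhibitory Smad6 by 1.75 (SE 0.42). Of 15 tested of 18 listed, 7 were lower and 1, the ligand Bmp8b, higher (53.3% called, beside 20.4% of all genes), and the median was -1.17. All but Bmp8b were also called in every fit without 1 library, where the adjusted p of Bmp8b reached 0.14. The list as a whole depended on the medium, and 8 interactions were called. In full medium 9 of 15 were lower and 2 higher (beside 6.83% and 7.36% of all genes), with a median of -1.42. In TGF-beta medium 8 of 17 were lower and 6 higher (beside 18.3% and 24.1% of all genes), with a median of 0.03. In the APT lines Id1 and Id3 ranged from 188 to 6023 in full medium, wider than both AKP lines.

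EGF receptor and ERK target genes were split. Of 26 tested, 6 were higher and 5 lower (42.3%, beside 20.4% of all genes), 3 of these 11 in every fit without 1 library. In full medium none was higher and 3 were lower. In TGF-beta medium 12 were higher and 5 lower (beside 24.1% and 18.3% of all genes). The ETS factors Etv1 (-2.25 ± 0.28), Etv4 (-0.71 ± 0.13) and Etv5 (-0.70 ± 0.18), ERK-induced in many epithelia, were all lower in MTO220, as were the feedback inhibitors Spry4 (-1.18 ± 0.37) and Spred1 (-0.66 ± 0.17). Epha4 (1.49 ± 0.30), Fos (1.218 ± 0.34) and Spry2 (0.65 ± 0.15) were higher; Spry2 lost its call without the pool 1 MTO220 library in TGF-beta medium (adjusted p = 0.0645). Without 1 library the calls of Fos, Spry4, Spred1 and Etv5 were lost in 6, 7, 4 and 2 of 8 fits, with adjusted p up to 0.0896, 0.147, 0.0684 and 0.0707. Among 9 tested EGF family receptors and ligands, 1 was called: Ereg, higher by 0.76 ± 0.23, a call (adjusted p = 0.043) lost in all 8 fits without 1 library, with adjusted p up to 0.137, and with the pool as a block (0.0659).

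Of 18 tested TGF-beta pathway genes 3 were higher in MTO220 (Smad4, Ski, Ltbp1) and 2 lower (Smad6, Ltbp3), 27.8% beside 20.4% of all genes. Ltbp1, which tethers latent TGF-beta to matrix, was at 6.55, 4.96, 92.0 and 84.0 in MTO54 and at 20.7, 30.2, 1706 and 1473 in MTO220 (3.06 ± 0.41). Ltbp3 went the other way, at 794, 2007, 3418 and 3348 against 82.8, 115, 1277 and 1335 (-2.53 ± 0.44). The repressor Ski was higher by 0.85 ± 0.20. In full medium alone 1 was higher and 5 were lower (beside 7.36% and 6.83% of all genes). In TGF-beta medium 10 were higher and 2 lower of 19 tested (beside 24.1% and 18.3% of all genes). In all, 6 interactions of line and medium were called, all with the higher difference in TGF-beta medium. Over both media Tgfbr1 and Tgfb1 were not called (0.76 and -0.62, adjusted p = 0.069 and 0.051).

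Matrix genes and factors of epithelial-mesenchymal transition were higher in MTO220 in 8 of 20 tested and lower in 2 (beside 11.1% and 9.28% of all genes). In full medium 5 were higher and 3 lower of 17 (beside 7.36% and 6.83% of all genes). In TGF-beta medium 21 were higher and 2 lower of 24 (beside 24.1% and 18.3% of all genes). Cdh2, encoding N-cadherin, was at 1.09, 0, 12.5 and 9.94 in MTO54 and at 25.3, 46.2, 491 and 536 in MTO220 (5.00 ± 0.37). The basement membrane collagens Col4a1 (2.31 ± 0.26) and Col4a2 (1.67 ± 0.20) were higher, also against both APT lines in full medium for Col4a1 (2608 and 2720 beside 157 to 1583). Thbs1, Itgb6 and Timp1 were higher as well, by 2.14, 1.54 and 1.12, Timp1 with a call lost in 4 of 8 fits without 1 library (adjusted p up to 0.0943). The factors Twist1 and Snai1 were lower, Twist1 at 569, 846, 1155 and 1388 against 33.3, 33.8, 311 and 322 (-3.16 ± 0.40). Fn1, Vim, Tnc and Sparc were called higher in MTO220 in TGF-beta medium and were not called higher in full medium: Tnc was at 3.41 and 1.81 against 4881 and 4416 there and at most 3.28 in full medium.

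Of 24 tested junction genes 11 were higher in MTO220 and 2 lower (54.2%, beside 20.4% of all genes), with a median of 0.57. Of the 13, 8 were called in every fit without 1 library. Cldn2, a pore-forming claudin of crypts, was at 246, 371, 4.55 and 4.52 in MTO54 and at 2689, 2243, 91.5 and 194 in MTO220 (3.81 ± 0.36). Cldn6, a claudin of embryonic epithelia, was higher by 2.42 ± 0.23 and Ocln by 1.11 ± 0.14, while Cldn8 (-1.83 ± 0.26) and Tjp1 (-0.62 ± 0.19, lost in 5 of 8 fits without 1 library, with adjusted p up to 0.142) were lower. Cdh1, E-cadherin, had 6114 to 8961 reads in MTO54 and 9568 to 14156 in MTO220 (0.63 ± 0.18, adjusted p = 0.032, lost in 6 of 8 fits without 1 library, with adjusted p up to 0.114). Keratin genes depended on the medium, and 7 interactions were called. In full medium 1 of 14 was higher (Krt14) and 4 were lower (Krt5, Krt6a, Krt13, Krt23), beside 7.36% and 6.83% of all genes. In TGF-beta medium 9 were higher and 2 lower (beside 24.1% and 18.3% of all genes). Over both media 5 were higher: the simple keratin Krt8 (0.93 ± 0.19), Krt18, Krt20, and the basal Krt14 and Krt17, of which Krt14 reached 5242 and 4640 in MTO220 in TGF-beta medium beside 20.5 and 32.5 in MTO54. Krt23 was lower (-1.05 ± 0.18). The call of Krt18 (adjusted p = 0.0499) was lost in 6 of 8 fits without 1 library, with adjusted p up to 0.164, and with the pool as a block (0.0683), and that of Krt20 in 4 of 8 (up to 0.0601).

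Genes of fetal-like and regenerating epithelium divided. Of 23 tested, 7 were higher in MTO220 and 4 lower (47.8%, beside 20.4% of all genes). Clu was at 437, 417, 19283 and 25993 in MTO54 and at 999, 582, 105251 and 96960 in MTO220 (1.505 ± 0.28), and the YAP targets Ccn1 (2.58 ± 0.33), Ccn2 (1.36 ± 0.28) and Ankrd1 (2.68 ± 0.37) were higher. Ly6a, encoding SCA-1, was lower at 38718, 45992, 59412 and 70033 against 28501, 19747, 12688 and 11177 (-1.63 ± 0.30), and Ly6c1 by 1.72 (SE 0.35). Ly6 genes are near-identical copies of each other, so their reads may be split between them.

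Of 21 tested NF-kB and cytokine genes 8 were higher in MTO220 and none lower (38.1%, beside 20.4% of all genes), with a median of 0.71, and 5 of the 8 were called in every fit without 1 library. In full medium 2 of 18 were called, neither of them in every such fit. In TGF-beta medium 15 of 22 were called, all higher (beside 24.1% of all genes higher). Tnfaip3, an NF-kB feedback inhibitor, was at 66.6, 165, 341 and 349 in MTO54 and at 278, 383, 1447 and 1189 in MTO220 (1.78 ± 0.26). Tnf was higher by 1.62 ± 0.30, Birc3 by 1.20 ± 0.18 and Cxcl16 by 0.91 ± 0.18. Of 16 tested interferon-stimulated genes 6 were higher and 2 lower (50.0%, beside 20.4% of all genes). Oas1a, a sensor of double-stranded RNA, was at 1.09, 2.98, 2.27 and 0 against 147, 71.9, 82.9 and 71.3, and the APT lines had 171 to 359. Mx1 (-1.87 ± 0.28) and Sting1 (-1.40 ± 0.21) were lower. Over both media 2 of 17 antigen presentation genes were called (11.8%, beside 20.4% of all genes): H2-M3 higher (1.74 ± 0.27) and Cd274, PD-L1, lower (-1.07 ± 0.23). In full medium 4 of 19 were higher, none lower (beside 7.36% of all genes higher). In TGF-beta medium 7 of 19 were higher and 3 lower (beside 24.1% and 18.3% of all genes). Not all of these single-medium calls were kept in every fit without 1 library.

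Detoxification genes were higher in 5 of 23 tested and lower in 1 (26.1%, near the 20.4% of all genes). In full medium 10 of 23 were called, 6 higher and 4 lower, a larger share than the 14.2% of all genes called there (7.36% higher and 6.83% lower). Nqo1, an NRF2 target, was at 186, 108, 33.0 and 56.0 in MTO54 and at 332, 306, 435 and 380.0 in MTO220 (2.19 ± 0.40), and Akr1b8 was higher by 1.73 ± 0.26. Gsta1 (3.34) and Gsta2 (3.01) were higher too and, as near-identical copies, are uncertain one by one. Cyp1a1, the target of the aryl hydrocarbon receptor, was lower at 169, 384, 116 and 108 against 35.6, 56.0, 9.69 and 12.4 (-2.86 ± 0.32).

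**Figure D4:**
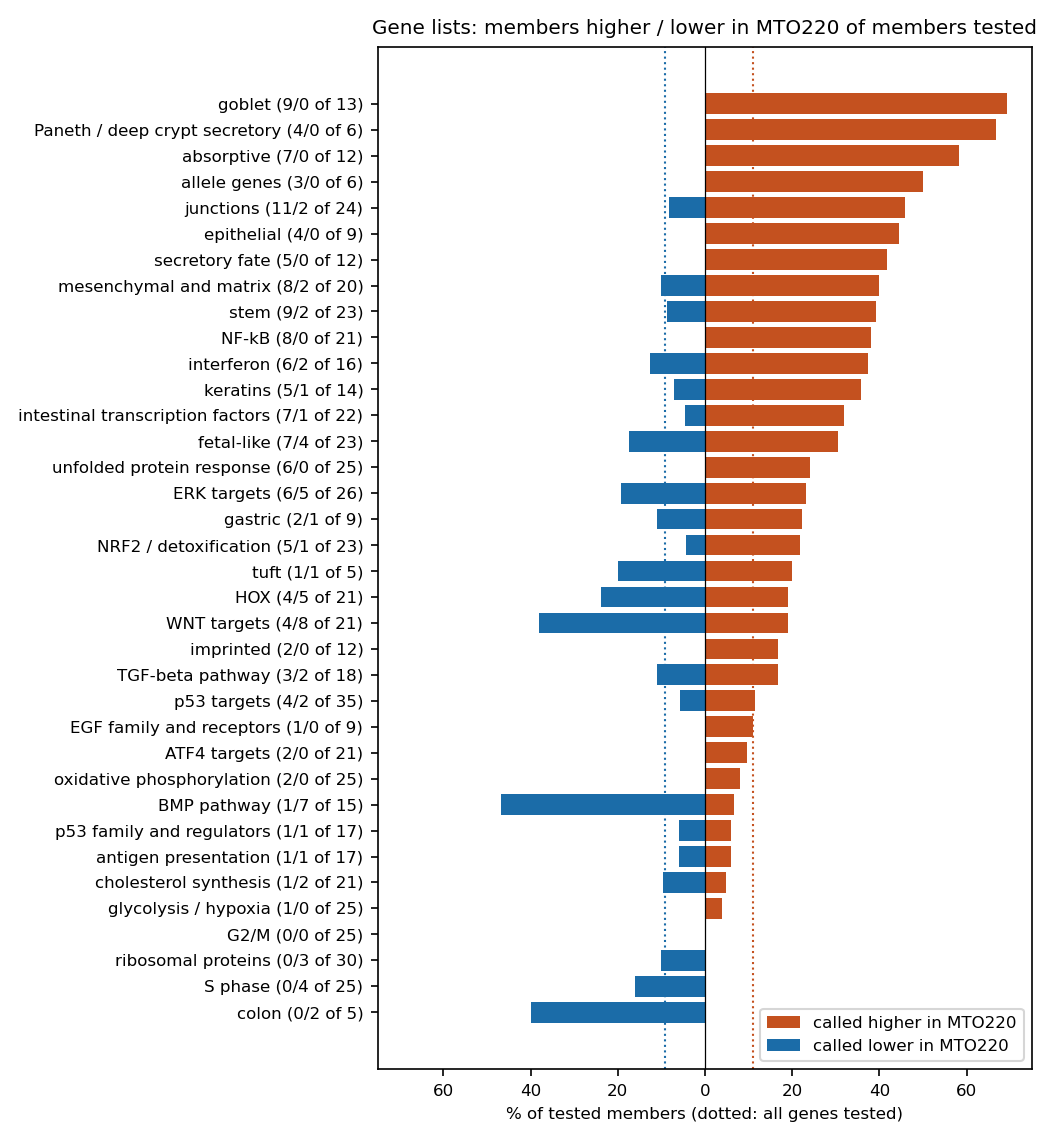
Share of tested members (x axis, %) called higher in MTO220 (to the right) and called lower (to the left) for each gene list with 5 or more tested members over both media, with the numbers higher, lower and tested in brackets; dotted lines mark the shares of all genes tested, 11.1% and 9.28%. Goblet genes (9 of 13 higher) stand at the top, and BMP genes have the longest bar to the left (7 of 15 lower).

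Growth and metabolism differed little over both media. None of 25 G2/M genes was called and 4 of 25 S phase genes were lower (beside 20.4% of all genes called and 9.28% lower). In TGF-beta medium alone 21 of 25 G2/M genes, 18 of 25 S phase genes and 21 of 30 ribosomal protein genes were lower in MTO220 (beside 18.3% of all genes lower in that medium), and in full medium alone none of these 3 lists had a called member. Of the 21, 18 and 21 calls in TGF-beta medium 17, 11 and 5 were made in every fit without 1 library. Mcm5, a replication helicase subunit, was at 11894, 8634, 3264 and 3213 against 9900, 6938, 1272 and 1303, a difference over both media of -0.81 ± 0.23 whose call was lost in 6 of 8 fits without 1 library (adjusted p up to 0.0985). Of 30 ribosomal protein genes 3 (Rpl4, Rpl6, Rpl8) were lower over both media, each lost in 6 of 8 such fits, with adjusted p up to 0.1, 0.116 and 0.097. Of 25 genes of oxidative phosphorylation, 25 of glycolysis and hypoxia and 21 each of cholesterol synthesis and the ATF4 response, 2, 1, 3 and 2 were called over both media (8.0%, 4.0%, 14.3% and 9.52%, beside 20.4% of all genes). In TGF-beta medium alone 4, 14, 8 and 13 were called (beside 42.4% of all genes). Of the glycolysis and hypoxia genes 8 were higher and 6 lower there, and of the ATF4 genes 7 were higher and 6 lower. The one hypoxia gene called over both media was Car9, carbonic anhydrase IX, at 9.83, 4.96, 3.41 and 6.32 against 656, 576, 48.4 and 39.9 (4.62 ± 0.59). Over both media Vegfa and Ldha differed by 1.04 and -0.53 (adjusted p = 0.23 and 0.13). Sqle of cholesterol synthesis was lower by 0.58 (SE 0.12).

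The difference between the lines itself depended on the medium for 1126 of 13725 genes (8.2%; 5.49% with a higher and 2.72% with a lower difference in TGF-beta medium). Without 1 library this count moved between 343 and 2384: it was 2384 without the pool 1 MTO54 library in full medium, 629 without that of MTO220, 476 and 538 without the pool 1 and pool 2 MTO54 library in TGF-beta medium, and 343 and 389 without those of MTO220. Onecut2, a homeobox factor, was at 997 and 1454 in MTO54 and 16.1 and 13.3 in MTO220 in full medium and at 969.3 and 968.5 against 3402 and 4452 in TGF-beta medium, so the order of the lines turned. Piezo2, a mechanosensitive channel, turned likewise, at 222 and 314 against 2.299 and 3.55 in full medium and at 4322 and 3151 against 9029 and 10722. Apob, which carries lipids in chylomicrons, had at most 17.2 reads in 6 libraries and 2281 and 2767 in MTO220 in TGF-beta medium. Elapor1 turned in the other direction, at 20.8 and 53.6 against 679 and 649 in full medium and at 139 and 114 against 7.54 and 14.3.

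In full medium the 2 APT lines place each difference. For 1255 of the 2803 genes MTO54 alone was the highest or lowest of the 4 lines (677 lowest, 578 highest), for 758 MTO220 alone (353 lowest, 405 highest), for 653 both lay at opposite ends and for 137 neither did. The 2 APT lines differed from each other in 2619 of 14373 genes (18.2%; 8.65% higher and 9.57% lower in MTO101), fitted over their own 2 media.

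Position on the genome went with the direction of the difference. On chromosome 4, 273 of 864 tested genes were higher in MTO220 and 47 lower (37.0% called), with a median of 0.45 beside 0.01 for all genes. On chromosome 15, 189 of 535 were lower and 38 higher (42.4%), with a median of -0.43, and on chromosome 5 the median was -0.31 (28.2%). In full medium MTO54 minus the mean of the APT lines had a median of -0.27 on chromosome 4, 0.47 on chromosome 5 and 0.39 on chromosome 15, and MTO220 minus the APT lines lay between -0.02 and 0.14 on every chromosome. Between the APT lines the medians ranged from -0.03 to 0.14. DNA copy number was not measured.

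**Figure D5:**
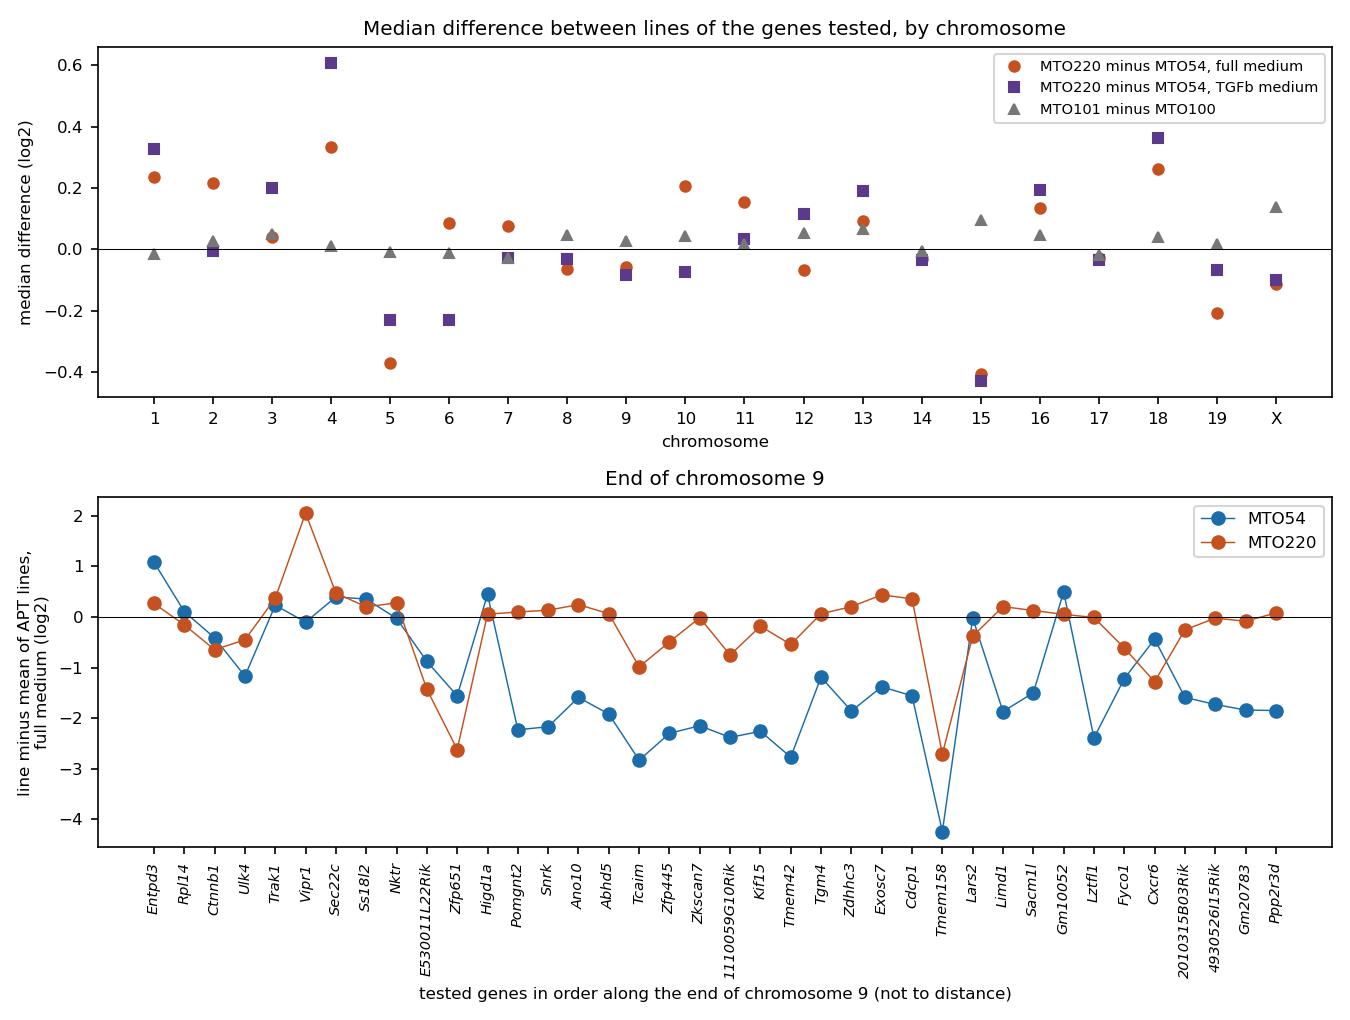
The upper panel plots the median difference (log2) of the tested genes of each chromosome between the AKP lines in full medium (circles) and TGF-beta medium (squares) and between the APT lines (triangles), with chromosome 4 at 0.33 and 0.61 and chromosome 15 at -0.41 and -0.43. The lower panel plots the level of MTO54 and MTO220 minus the mean of the APT lines in full medium (log2) for the tested genes at the end of chromosome 9 in order, where MTO54 lies below MTO220 from Pomgnt2 to Tmem158.

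The end of chromosome 9 had the steepest shift, a segment chosen after its values were seen. In the window from 120 to 130 Mb the median was 1.76 and 61.0% of genes were called, while the windows from 50 to 120 Mb had medians between -0.39 and -0.23 and those from 0 to 50 Mb between 0.33 and 0.50. From Pomgnt2 (start 121981606) to the last tested gene, Ppp2r3d (start 124474346), 23 of 26 tested genes were higher in MTO220, 1 was lower (Gm10052, lost in 3 of 8 fits without 1 library, with adjusted p up to 0.0672), and Lars2 and Cxcr6 were not called, with a median of 1.89. The first 15 of these in a row were all higher. Of the 12 tested genes before it, from Entpd3 (start 120539818) to Higd1a, 1 was called, Vipr1. In full medium MTO54 was the lowest of the 4 lines in 23 of the 26, with a median of -1.85 against the APT lines, where MTO220 had -0.01. Snrk, a kinase, had means of 115 reads in MTO54, 568 in MTO220, 532 in MTO100 and 505 in MTO101. Limd1, a LIM domain protein, had 477, 2012, 1781 and 1716 in the same order.

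Y-linked genes were present in both lines, and 3 of 4 tested were higher in MTO220 over both media. Eif2s3y was at 354, 196, 174 and 204 in MTO54 and at 632, 539, 954 and 919.7 in MTO220 (1.73 ± 0.27), Kdm5d was higher by 1.31 ± 0.23 and Uty by 1.12 ± 0.27, a call lost in 3 of 8 fits without 1 library (adjusted p up to 0.0574). Ddx3y was at 536, 260.0, 186 and 236 against 382, 328, 932 and 756 and was not called (0.96, adjusted p = 0.117). In TGF-beta medium all 4 were called higher, and in full medium 1, Eif2s3y, a call lost in 3 of 4 fits without 1 library (adjusted p up to 0.243). Of 28 imprinted genes 12 were tested and 2 were higher. Impact, a regulator of the GCN2 kinase that is expressed from the paternal copy in mouse, was at 28.4, 36.7, 90.9 and 69.6 in MTO54 and at 293, 312, 680.4 and 559.6 in MTO220 (3.06 ± 0.20), and it had 0 to 1.06 reads in the APT lines in full medium. Grb10, a growth inhibitor, was higher by 1.48 ± 0.14.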

How the data were processed

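RNA of 8 tumour organoid libraries, 4 titled MTO220 and 4 titled MTO54, was compared, with 8 libraries of 2 other lines as reference. Per the labels' protocols, poly(A) RNA was sequenced from libraries without strand or molecular identifiers. STAR 2.3.0e and DESeq2 1.22.1 are listed, per the submitters' processing notes; counting program and annotation are not given in the sources used here. The authors deposited signal values per gene, which are whole read counts divided by a size factor; 100% of values were whole within 0.001 after rescaling, and these recovered reads gave depth and the edgeR 4.0.16 and DESeq2 1.42.0 alternatives. As the values are normalised, the main test was limma 3.58.1 (trend, robust) on log2(value + 1), with medium as a term, over genes with 10 or more reads in 4 of 8 (or 2 of 4) libraries and Benjamini-Hochberg adjusted p under 0.05 as the call. The step was tested on simulated data. RefSeq (GRCm38.p6) named 93.0% of 27179 gene IDs. Pools are labelled as such and so pair the libraries; the differences of pool 2 from pool 1 correlated across genes at -0.382 to 0.239 between groups, and a fit with the pool as a block was an alternative.

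Members and gene lists (42) were chosen with earlier results of these data known. Genes named by rule were the genotype genes, the 15 highest and 15 lowest called differences with 1 direction in all pairs and a mean of at least 150, up to 4 members per list by p, 3 interactions each way, and genes under 1 read in one line and over 50 in the other. List members named beyond these, the chromosome 9 segment and the families of the closing section were chosen after their values were seen. Some genes that these rules name are not reported here.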

Additional observations from a re-analysis of the deposited data

Results flagged for a closer look

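For 6 genes the difference between the lines was itself different in the 2 media by the test of the interaction, with limma's adjusted p between 1.5e-06 and 0.002; the values below are the difference in TGF-beta medium minus that in full medium, in log2 units, and no explanation was tested. Apob had 8.319, Onecut2 8.272 and Piezo2 7.508, each called lower or not called in MTO220 in full medium (Onecut2 -6.27, Piezo2 -6.09, Apob 0.51) and higher in TGF-beta medium (2.00, 1.42 and 8.83). Elapor1, an endosome and lysosome associated membrane protein, had -7.743, from 4.27 in full medium to -3.47 in TGF-beta medium. Tff3 had -5.285 and was too low to be tested in TGF-beta medium alone, where both lines had at most 3.80 reads. Mgam, the brush border maltase-glucoamylase, had -5.219, at 8.74 and 5.96 reads in MTO54 and 563 and 907 in MTO220 in full medium and at 52.3 and 38.9 against 118 and 96.0 in TGF-beta medium.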

How the results depend on the processing

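Over both media limma called 2803 genes, edgeR (quasi-likelihood) 2760 and DESeq2 (Wald) 3354. Without a term for the medium 494 were called and in a test against 2-fold 545; leaving out 1 library gave 1693 to 3373. In full medium a filter on a mean of 50 gave 1286 calls and leaving out 1 library 916 to 2665. In TGF-beta medium a spread shared over all 8 libraries gave 3352 calls and leaving out 1 library 3141 to 7614, and for the interaction leaving out 1 library gave 343 to 2384. With the pool as a replicate block the counts were 2401, 2749, 5751 and 1135 for both media, full medium, TGF-beta medium and the interaction, and 8 of the genes named by rule lost their call over both media: Smad4, Cpe, Pmaip1, Ereg, Krt18, Apob, Pola1 and Ndufa4 (adjusted p between 0.0504 and 0.0683).

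Of 147 genes named by rule and called over both media, 115 kept the call in every fit without 1 library that tested them. Under every other scaling, pseudocount, filter, tool or block that tested them, 136 kept it. Igfbp5, Igfbp2, Sox11, Spdef, Gfi1, Tff3, Cdx1, Anpep, Nrp1, Pxdn, Rec8, Hoxd8, Tceal8, Oas1a, Olfm4 and Car9 were tested in only 4 of the 8 fits without 1 library. Without a library in which they reach 10 reads they fall below the filter, and list members near 0 in 1 line can do the same. Of the genes just named, all but Tff3 and Cdx1 pass the filter through 1 line alone, so the direction of their call was fixed in advance. Elapor1, not called over both media (0.40), ranged from -0.64 to 1.34 without 1 library and was negative without any full-medium library (-0.64, -0.39, -0.11 and -0.36). With 2 libraries per line and medium, small differences and genes of few reads were at the limit of what these libraries can show.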

Other observations

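Multicopy genes of the early embryo and germ line stood apart between the lines. These families were chosen after their values were seen, and their near-identical copies share reads, so values are sums over a family. Beside the counts of called members below, 11.1% of all tested genes were called higher in MTO220 and 9.28% lower. All 6 tested Zscan4 genes, expressed in 2-cell embryos and transiently in embryonic stem cells of mouse, were lower in MTO220. Their sum was 8126, 3232, 3414 and 2124 normalised reads in MTO54 (full medium pools 1 and 2, then TGF-beta medium) and 658, 525, 151 and 396 in MTO220, with 2165 to 9566 in the 8 APT libraries. Of 23 tested Pramel genes 22 were lower in MTO220, with sums of 2630.0 to 11189 in MTO54 and 967 to 2713 in MTO220. Of 5 tested Usp17l genes 4 were lower, and both tested Tcstv genes. Of 6 tested genes of the X-linked Xlr3 and Xlr4 families 5 were higher in MTO220, with sums of 1502 to 1807 beside 328 to 1241 in MTO54, while the 8 APT libraries had at most 10.4.

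Of 14 tested genes of the Ly6 region of chromosome 15, which encode small surface proteins and include Ly6a, 12 were lower in MTO220 and none higher. Their sum was 135900 to 194130 normalised reads in MTO54, 33074 to 83412 in MTO220 and 30911 to 52873 in the APT libraries. Chromosome 15 as a whole had a median difference of -0.43.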
